A study of Rattus norvegicus with 8 samples.

Results

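Enamel matrix and ameloblast genes were followed in the fibrous tissue between tooth root and bone, the periodontal ligament (PDL), before and after the teeth came into occlusal contact. The 10 genes were Ambn, Amelx, Amtn, Odam, Enam, Klk4, Mmp20, Calb1, Slc24a4 and Fam83h. Their list was chosen with earlier results of these data known. All 10 have a row among the 17337 genes in the count table. The tissue was the cervical PDL of rats (Rattus norvegicus) that were left untreated, collected by laser micro-dissection, and RNA was sequenced from low-input libraries. The groups are 4 animals at postnatal day 18 (P18) and 4 animals at postnatal day 28 (P28), each library shown as replicate 1 to 4 of its age. The series dates the start of occlusal contact to the interval between these ages.

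Enamel is laid down by ameloblasts, epithelial cells that line the developing crown and are lost when the tooth erupts. In the secretory stage they release ameloblastin (Ambn), amelogenin (Amelx) and enamelin (Enam), which are cut by the metalloproteinase enamelysin (Mmp20). In the later maturation stage the serine protease Klk4 degrades the remaining matrix, amelotin (Amtn) and the odontogenic ameloblast-associated protein (Odam) appear in the basal lamina between the cells and the enamel, and ion transporters such as the sodium-calcium exchanger Slc24a4 supply mineral. Amtn and Odam are also known from the junctional epithelium, which seals the gum to the erupted tooth at its cervical margin. Remnants of the dental epithelium persist in the ligament as the epithelial cell rests of Malassez. Ambn, Enam, Amtn and Odam belong to the secretory calcium-binding phosphoprotein family, whose other members include milk, saliva and bone proteins.

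In the RefSeq gene order of the rat assembly GRCr8, Enam, Ambn and Amtn are direct neighbours on chromosome 14, with 0 protein-coding genes between them, and Odam follows after 9 more. Of those 9, Vcsa2, Smr3a, Cabs1 and Csn3 were counted under these symbols, and all were at 0 in the 8 libraries. Amelx lies on chromosome X inside Arhgap6. No values of Arhgap6 are reported here, and whether it shares exons with Amelx was not checked. The strand setting of the counting is not given in the sources used here. Whether any reads of Arhgap6 were counted for Amelx could therefore not be checked.

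Promoters of the matrix genes Ambn, Amelx, Amtn and Odam are shown, and that of Enam because the gene is a direct neighbour of Ambn. Those of Mmp20 and Slc24a4 were searched but are not shown, although both genes were also highest in P18 replicate 1, like Ambn, Amelx, Amtn and Odam. Each sequence is the 250 bases before the gene's start, 5′ to 3′ on the gene's strand, from RefSeq (GRCr8; 7 of the 10 genes matched a promoter entry). The searched motifs were the CCAAT box (CCAAT), the TATA box (TATAAA), the RUNX motif (TGTGGT) and a C/EBP motif (TTGCNNAA), on both strands. Capitals mark their matches, and in Amelx a TATA box overlaps a reversed CCAAT box.
Ambn: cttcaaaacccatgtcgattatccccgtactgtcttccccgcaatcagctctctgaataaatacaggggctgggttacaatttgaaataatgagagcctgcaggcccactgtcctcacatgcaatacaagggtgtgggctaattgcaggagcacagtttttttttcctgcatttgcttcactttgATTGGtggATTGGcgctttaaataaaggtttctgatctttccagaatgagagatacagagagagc
Amelx: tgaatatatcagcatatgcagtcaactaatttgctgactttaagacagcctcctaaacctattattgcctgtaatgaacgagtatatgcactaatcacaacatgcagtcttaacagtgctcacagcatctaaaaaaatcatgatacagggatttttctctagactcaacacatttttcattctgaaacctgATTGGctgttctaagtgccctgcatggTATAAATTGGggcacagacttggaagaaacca
Amtn: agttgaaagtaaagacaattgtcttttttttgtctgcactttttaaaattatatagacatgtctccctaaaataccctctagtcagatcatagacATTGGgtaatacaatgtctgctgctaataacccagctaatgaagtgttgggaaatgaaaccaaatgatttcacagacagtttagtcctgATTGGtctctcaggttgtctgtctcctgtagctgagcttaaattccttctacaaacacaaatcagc
Odam: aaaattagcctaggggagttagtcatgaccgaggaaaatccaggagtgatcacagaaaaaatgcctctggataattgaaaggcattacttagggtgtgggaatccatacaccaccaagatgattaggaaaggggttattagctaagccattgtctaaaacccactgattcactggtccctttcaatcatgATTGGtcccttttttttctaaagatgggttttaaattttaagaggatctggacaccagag
Enam: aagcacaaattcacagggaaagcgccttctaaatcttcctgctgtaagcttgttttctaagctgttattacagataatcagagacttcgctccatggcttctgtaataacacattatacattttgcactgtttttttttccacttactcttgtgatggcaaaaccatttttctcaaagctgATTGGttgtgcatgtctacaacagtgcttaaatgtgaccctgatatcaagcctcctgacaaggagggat
These windows lie at chr14:19898423-19898672 (minus strand) for Ambn, chrX:28648553-28648802 (plus strand) for Amelx, chr14:19945224-19945473 (minus) for Amtn, chr14:20481761-20482010 (minus) for Odam and chr14:19865477-19865726 (minus) for Enam. A CCAAT box on either strand was present in all 7 matched promoters, including Mmp20 and Slc24a4, against 34.0% of 33469 rat promoters of the same length. In the 5 matrix genes a reversed CCAAT box (ATTGG) began at positions -65 and -57 (Ambn), -59 and -27 (Amelx), -155 and -66 (Amtn), -60 (Odam) and -69 (Enam), counted back from the gene's start. That of Slc24a4 began at -158, and the match of Mmp20 was a forward CCAAT box at -33. Within the window from -75 to -50, set after these matches were seen, 3.04% of all promoters held it. The TATA box was found in Amelx and Mmp20 (12.9% of all promoters), the RUNX motif in Slc24a4 (14.5%), and the C/EBP motif in none of the 7 (9.22%). A match describes these letters and is not a measured binding site.

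Total counts per library ran from 5252693 (P28 replicate 4) to 26645656 (P18 replicate 2). Levels are given as CPM, read counts scaled to a common library size with TMM factors, and 1 count was worth 0.0360 to 0.208 CPM. A count of 0 allows up to 3 counts, or 0.108 to 0.623 CPM, by counting error only. The ligament genes Postn (periostin) and Col1a1 lay at 15300.0 ± 847 and 53215 ± 13439 CPM at P18 and at 20813 ± 8025 and 72172 ± 9076 CPM at P28 (SD, n = 4 per age). Tnmd, a marker of tendon and ligament cells, lay at 559 ± 119 and 104 ± 36.8 CPM and was called lower at P28 (edgeR adjusted p = 0.00608). Aspn, which encodes a proteoglycan used as a ligament marker, had 4 counts at P18 and 0 at P28. Whether the gene model used for counting captures all Aspn reads could not be checked. P28 replicate 4 stood apart from the other P28 libraries, with correlations across genes of 0.750 to 0.766 (genes are not independent replicates), and it was the shallowest. P18 replicate 1 was likewise least like the others of its age, at 0.780 to 0.789, where P18 replicates 2 and 4 reached 0.835. With 10863769 counts it was the shallowest P18 library. The 10 enamel genes held 0.511% of the counts in P18 replicate 1, and P18 replicates 2 to 4 followed with 0.0424%, 0.149% and 0.00236%. For P28 replicates 1 to 4 the shares were 0.0154%, 0.00511%, 0.0573% and 0.00110%.

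**Figure D1:**
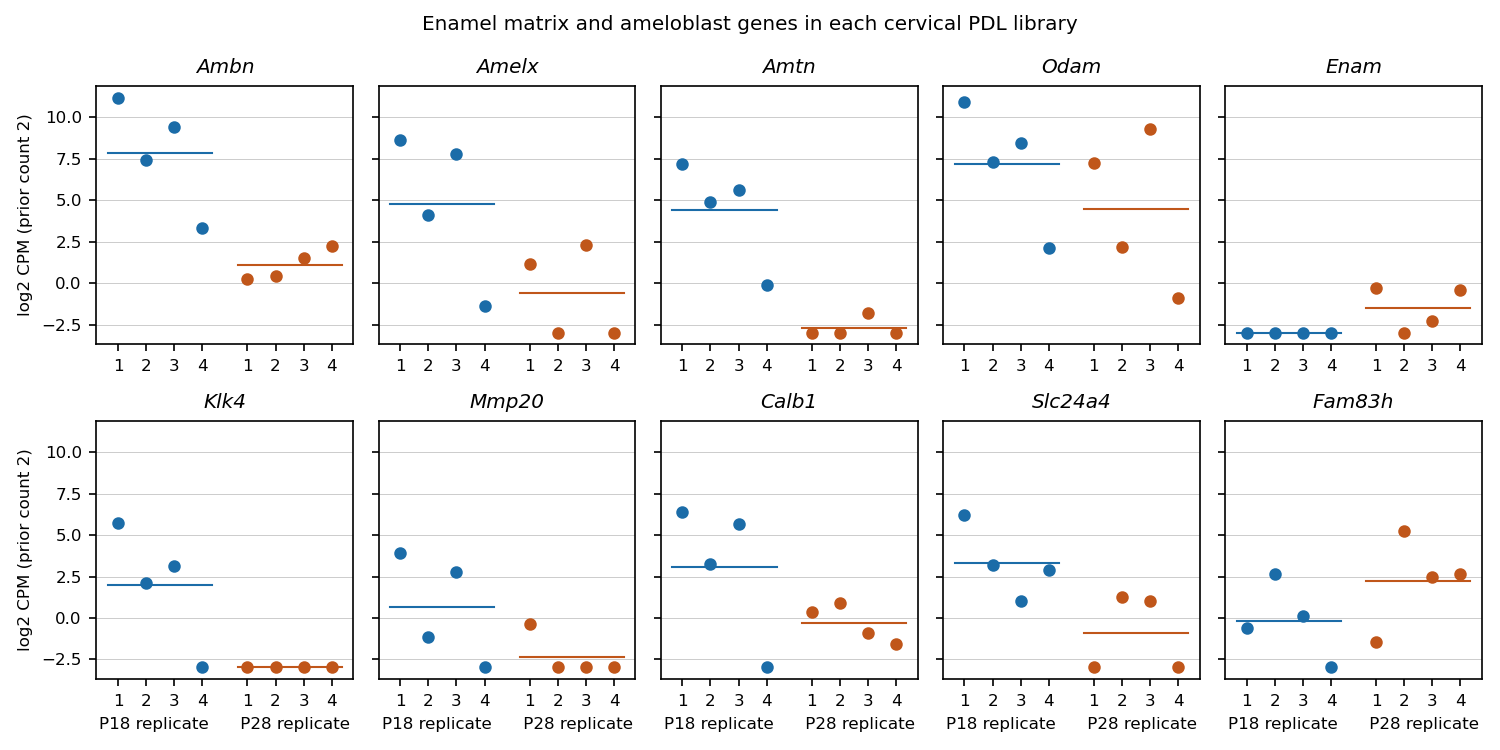
Log2 CPM (prior count 2) of each of the 10 genes in every library, P18 in blue and P28 in orange, with lines at the mean of each age. Most genes are highest in P18 replicate 1 and lowest of the P18 libraries in replicate 4, and of the matrix genes only Odam stays at 155 and 629 CPM at P28, in replicates 1 and 3.

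Ambn and Amtn fell between P18 and P28, and no enamel gene was called higher. Of the 10 genes, 7 passed the filter on low counts and 2 were called lower and 0 higher (edgeR quasi-likelihood test, Benjamini-Hochberg adjusted p under 0.05). Over all 10472 tested genes 0.42% were called lower and 0.516% higher (0.936% in either direction), and 14.5% were at an unadjusted p under 0.05. The ages did not overlap in 2 of the 7, both lower, against 5.54% of tested genes (4.91% for P28 above P18, and 10.4% in either direction). The 10 genes were chosen with earlier results of these data known, so these shares describe the list and are no independent test. Amtn had under 3 counts in every P28 library and passed the filter through P18 alone. The count of calls depended on the test. The DESeq2 Wald test, which called 5.3% of all genes with an adjusted p, called Ambn, Amelx, Amtn, Calb1 and Slc24a4 lower. Limma voom with sample quality weights (2.93% of all genes) called 0 of the 7, with 1 at an unadjusted p under 0.05 (5 in edgeR). In bulk captures, fewer cells of a type and less RNA per cell cannot be told apart.

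Among the secretory matrix genes, Ambn had the clearest difference. Its level was 2325, 170.3, 690.2 and 9.70 CPM in P18 replicates 1 to 4 and 1.05, 1.25, 2.69 and 4.57 CPM in P28 replicates 1 to 4. All P18 libraries lay above all P28 libraries, but P18 replicate 4 was nearer to the P28 level than to the other P18 libraries, the lowest of which was 17.6 times as high. Its log2 fold change was -8.51 ± 1.40 (SE; edgeR adjusted p = 0.0204), and the exact 2-sided permutation p was 0.0286, which is the lowest possible value with 4 libraries at each age. The call of Ambn ended without P28 replicate 1 (adjusted p = 0.0917) or P28 replicate 3 (0.0716) and with voom and quality weights (0.557).

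Amelx, the most abundant protein of forming enamel, lay at 400.1, 17.0, 217 and 0.254 CPM in P18 replicates 1 to 4. At P28 it lay at 2.11, 0, 4.88 and 0 CPM in replicates 1 to 4. Replicates 1 to 3 of P18 were above every P28 library, while P18 replicate 4, with 5 counts, was below P28 replicates 1 and 3. With a log2 fold change of -6.36 ± 1.66 (SE), Amelx did not pass over all genes (edgeR adjusted p = 0.0958; exact permutation p = 0.114). By DESeq2's Wald test it did (adjusted p = 0.0443).

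Enam, which encodes the largest of the enamel matrix proteins, was at 0 counts in all 4 P18 libraries, including those with 25770 and 16197 counts of the neighbouring Ambn (replicates 1 and 3). Its counts in P28 replicates 1 to 4 were 12, 0, 1 and 3. The P18 zeros allow up to 0.271, 0.108, 0.128 and 0.152 CPM in replicates 1 to 4. P28 replicate 1 lay at 0.703 CPM and replicate 4 at 0.623 CPM, the latter at the level that its own count of 0 would allow. Enam did not pass the filter. In the fit without a filter its log2 fold change did not pass (edgeR adjusted p = 0.271), and the exact permutation p was 0.143. Of the matrix genes it was the one without a count at P18. Whether the gene model used for counting captures all Enam reads could not be checked, so the zeros are a property of this count table and do not show that Enam RNA was absent.

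Of the basal lamina proteins, Amtn was nearly confined to P18 in these libraries. It lay at 143, 29.7, 48.7 and 0.813 CPM in P18 replicates 1 to 4 and had 0, 0, 2 and 0 counts in P28 replicates 1 to 4. All P18 libraries were above all P28 libraries, and P18 replicate 4 (16 counts) was the lowest P18 library by a factor of 36.5. The pooled ratio of P18 to P28 was 954, with a 95% counting interval of 264 to 7877 that leaves out the spread between animals. The edgeR adjusted p was 0.0188 and the exact permutation p 0.0286, the lowest possible with 4 libraries at each age. Amtn entered the edgeR test through its P18 libraries alone. The call of Amtn ended without P18 replicate 2 (adjusted p = 0.0577), P28 replicate 1 (0.0857) or P28 replicate 3 (0.0873) and with voom and quality weights (0.266).

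Odam, the other basal lamina gene, overlapped between the ages. P18 replicates 1 to 4 held 1912, 160.1, 355 and 4.27 CPM of Odam. P28 replicates 1 to 4 held 155, 4.48, 629 and 0.415 CPM. P28 replicate 3 was thus within the range of P18 replicates 1 to 3 and P28 replicate 1 just below it, while P28 replicate 2 lay near P18 replicate 4 and P28 replicate 4 below every other library. Odam's log2 fold change was -1.62 ± 1.55 (SE; edgeR adjusted p = 0.688; exact permutation p = 0.400), and it was 0.19 without P18 replicate 1. Within P28, Odam spanned a range of 1514-fold and Ambn 4.33-fold.

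The count ratio of Odam to Ambn shows the same libraries from another side. P18 replicates 1 to 4 had ratios of 0.822, 0.940, 0.514 and 0.440, a narrow range although the level of Ambn differed by 240-fold. At P28 it was 147, 3.58, 234 and 0.0909 in replicates 1 to 4, the last resting on 2 counts of Odam. This ratio was chosen after the values were seen. Its mean log2 value was 4.04 higher at P28 (exact permutation p = 0.257). Leaving out 1 library at a time gave differences of 2.56 to 6.23 (exact permutation p = 0.0286 to 0.429). Only the fit without P28 replicate 4 was under 0.05, at the lowest p possible with 4 against 3 libraries. The summed level of the 8 osteoclast genes counted was also highest in P28 replicates 1 and 3, with 5721 and 8043 CPM. It was 1190 and 2151 CPM in P28 replicates 2 and 4, and 1566 to 1807 CPM at P18. Ctsk and Acp5 held 4654 and 2627 CPM of the sum in P28 replicate 3. Each of the 6 tested osteoclast genes was highest in P28 replicates 1 and 3. Oscar, which did not pass the filter, was lower in P28 replicate 3 (0.570 CPM) than in P18 replicate 4 (3.05 CPM). Calcr, an osteoclast receptor, was at 0 in every library except P28 replicate 4, with 1 count. The part of these cells in the Odam values was not tested.

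Both enamel proteases were detected mainly at P18. Klk4 had 594, 117, 201 and 0 counts in P18 replicates 1 to 4 (53.6, 4.21, 8.56 and 0 CPM) and 0 in every P28 library. Over the pooled libraries Klk4 was at least 162-fold lower at P28, with the P28 group set to 3 counts. That bound leaves out the spread between animals, and P18 replicate 1 held 594 of the 912 pooled P18 counts. Since P18 replicate 4 was at 0 as well, the ages were not separated (exact permutation p = 0.143), and Klk4 did not pass the filter. Without a filter its edgeR adjusted p was 0.0742. Mmp20 had 167, 9, 160 and 0 counts in P18 replicates 1 to 4, against 11, 0, 0 and 0 counts in the P28 libraries in replicate order. P18 replicates 1 and 3 held nearly all of its signal, at 15.1 and 6.82 CPM (exact permutation p = 0.257), and the gene did not pass the filter.

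Calb1, the calcium-buffering protein calbindin-D28k of ameloblasts, lay at 84.6, 9.24, 49.98 and 0 CPM in P18 replicates 1 to 4 and at 1.17, 1.77, 0.407 and 0.208 CPM in P28 replicates 1 to 4. P18 replicate 4 was below every P28 library, and the other P18 libraries were above them. Calb1 had a log2 fold change of -5.28 ± 1.52 (SE; edgeR adjusted p = 0.124; exact permutation p = 0.171). It was called without P18 replicate 4 (adjusted p = 0.0358) and by DESeq2's Wald test (0.0298), and its fold change was -1.82 with voom and quality weights.

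Slc24a4, the sodium-calcium exchanger of maturation-stage ameloblasts, followed another order. It lay at 72.9, 9.13, 1.87 and 7.37 CPM in P18 replicates 1 to 4, and at 0, 2.29, 1.87 and 0 CPM in P28 replicates 1 to 4. Here P18 replicate 3 was the lowest P18 library, at the level of P28 replicate 3. Slc24a4 had a log2 fold change of -4.42 ± 1.54 (SE; edgeR adjusted p = 0.198; exact permutation p = 0.0571). That change was called by DESeq2's Wald test (adjusted p = 0.0147) and was -2.53 without P18 replicate 1.

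Fam83h, which encodes a protein that organises keratin filaments and is mutated in a dominant form of enamel hypocalcification, went the other way in its mean without passing. It lay at 0.541, 6.26, 0.980 and 0 CPM in P18 replicates 1 to 4 and at 0.234, 38.6, 5.45 and 6.23 CPM in P28 replicates 1 to 4. The ages overlapped, and the highest library, P28 replicate 2, was also the highest for Krt14. The log2 fold change was 2.68 ± 1.61 (SE; edgeR adjusted p = 0.489; exact permutation p = 0.286) and 1.02 without P28 replicate 2.

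**Figure D2:**
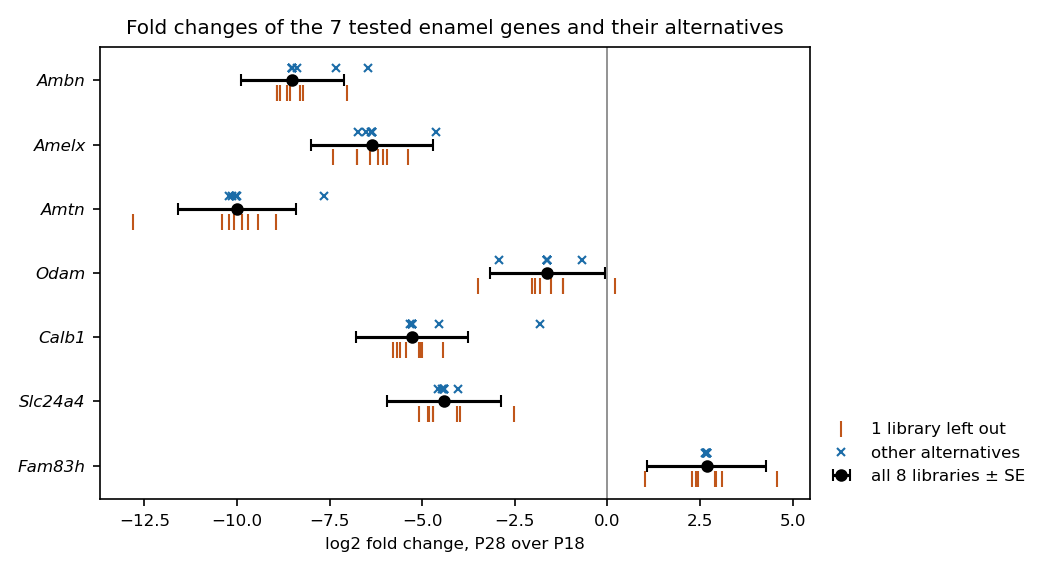
Log2 fold change (P28 over P18) of the 7 tested genes: black points with bars are the fit over all 8 libraries ± SE, orange marks the fits with 1 library left out, blue crosses the other alternatives. Odam lies nearest to 0 and crosses it without P18 replicate 1, and Fam83h lies above 0 in every fit shown.

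At P18, the enamel genes were ordered alike across libraries. For 7 of the 10 (Ambn, Amelx, Amtn, Odam, Klk4, Mmp20 and Calb1) the level fell in the order of replicates 1, 3, 2 and 4. That order was found in 4.61% of all tested genes. It was read from the values of Ambn, so Ambn matches by construction and the comparison is no independent test. Klk4 and Mmp20 did not pass the filter and are not among the tested genes behind this share. The same order was found for Krt14, Krt5, Krt17 and Cldn1 among 17 tested epithelial genes. Krt14, the keratin of basal epithelial cells, lay at 390.2, 97.6, 135 and 12.3 CPM in P18 replicates 1 to 4. The P28 libraries, in replicate order, held 122, 2500.1, 732 and 17.4 CPM of it, so the library richest in Krt14 was a P28 library with 12 counts of Ambn.

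Set against Krt14, Ambn did not overlap between the ages. Ambn alone did not overlap either, and Krt14 averaged 159 CPM at P18 and 843 CPM at P28, so this ratio is no independent test. The part of epithelial cells in the Ambn values was not tested. The count ratio of Ambn to Krt14, a comparison chosen after the values were seen, was 5.96, 1.74, 5.12 and 0.789 in P18 replicates 1 to 4. In P28 replicates 1 to 4 it was 0.00867, 0.000500, 0.00367 and 0.262, the last on 84 counts of Krt14. No P28 library reached the lowest P18 library, and the mean log2 ratio was 1.35 at P18 and -6.92 at P28 (exact permutation p = 0.0286). With Krt5, the partner keratin of Krt14, the ratios were 1.36 to 19.0 at P18 and 0.00119 to 0.289 at P28 (exact permutation p = 0.0286). Amelx to Krt14 stood at 0.0207 to 1.61 at P18 and 0 to 0.0173 at P28, with P18 replicate 4 and P28 replicate 1 close to each other (exact permutation p = 0.0286). The ratio of Odam to Krt14 overlapped, at 4.90, 1.64, 2.63 and 0.347 in the P18 libraries and 1.27, 0.00179, 0.859 and 0.0238 in the P28 libraries, each in replicate order (exact permutation p = 0.143). A total of 12 count ratios were computed, and none passed at an adjusted p under 0.05 over these 12 (lowest 0.114).

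**Figure D3:**
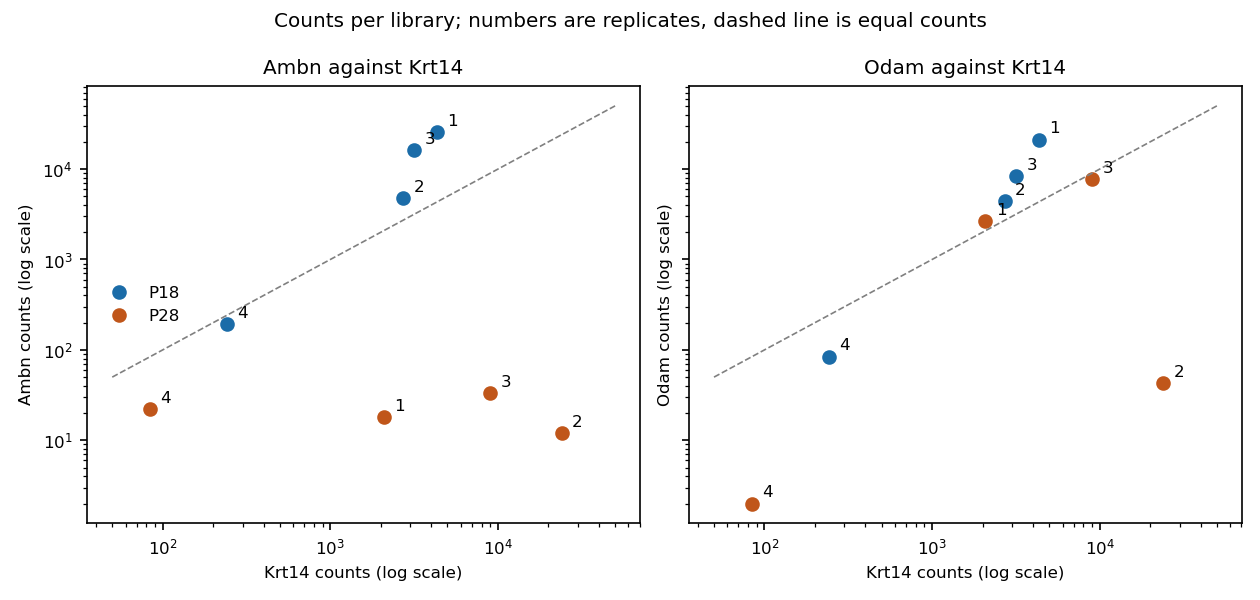
Counts of Ambn (left) and Odam (right) against counts of Krt14 in each library, on log axes, with replicate numbers beside the points and a dashed line at equal counts. For Ambn all P28 libraries lie below the line, replicate 4 nearest to it with a ratio of 0.262 and the other 3 at 0.000500 to 0.00867, and for Odam P28 replicates 1 and 3 lie near it, beside the P18 libraries.

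Epithelial genes as a group did not fall with the enamel genes. Of 25 listed, 22 were in the table, 17 were tested and 0 were called in either direction by edgeR (5 at an unadjusted p under 0.05, against 14.5% of all tested genes). The DESeq2 Wald test called Itgb4 higher and voom called 0. Over all tested genes edgeR called 0.936%, the DESeq2 Wald test 5.3% and voom 2.93% in either direction. Their log2 fold change was above 0 in 15 and below in 2, with a median of 1.65 against 0.01 for all tested genes. Itgb4, the hemidesmosome integrin, averaged 33.3 ± 17.7 CPM (SD) in the P18 libraries and 104 ± 53.9 CPM in the P28 libraries (edgeR adjusted p = 0.147). Krt5, Krt17 and Perp, a desmosome-associated protein, had log2 fold changes of 2.73 ± 1.04, 4.42 ± 1.69 and 2.03 ± 0.86 (SE; edgeR adjusted p = 0.242, 0.245 and 0.300). These values rested on P28 replicate 2, which held 1801 CPM of Krt17 where the other P28 libraries held 15.0, 13.2 and 1.45 CPM and the P18 libraries 44.0, 19.8, 20.1 and 2.08 CPM. Without it the log2 fold changes of Krt5, Krt17 and Perp were 1.09, -1.11 and 0.37. The median of the list was then 0.88, with 14 of 18 tested genes above 0. Epcam, a surface protein of simple epithelia, was at 0.914 to 11.5 CPM at P18 and 4.98 to 40.7 CPM at P28, and Cdh1 (E-cadherin) at 0 to 2.68 and 0.117 to 25.1 CPM. The summed epithelial level ran from 304 to 1026 CPM at P18 and from 469 to 6895 CPM at P28, highest in P28 replicate 2.

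Other cells that a cervical capture could hold were read in the same way. Dspp, the dentin gene of odontoblasts, lay at 3.61, 0.395, 4.01 and 0.813 CPM in P18 replicates 1 to 4 and at 0.117, 5.84, 0.895 and 0 CPM in P28 replicates 1 to 4. It was the 1 tested odontoblast gene of 5 with a log2 fold change below 0 (-0.36). Nes (nestin), Phex, Dmp1 and Mepe, of which the last 3 are also genes of bone cells, had values of 1.53, 1.78, 1.38 and 2.86, and edgeR called none of them. Nes did not overlap between the ages, at 10.6 ± 0.912 CPM (SD) in P18 and 30.5 ± 9.62 CPM in P28 libraries (edgeR adjusted p = 0.144). Of all tested genes, 4.91% lay higher at P28 without overlap. The odontoblast genes summed to 33.2 to 109 CPM at P18 and 98.9 to 322 CPM at P28. Ligament fibroblast genes summed to 99332 to 141891 CPM at P18 and 141870.0 to 209686 CPM at P28, with 2 called higher and 1 lower of 12 tested. Bone-forming cells had 1 called higher of 11 (Bglap) and osteoclasts 1 of 6 (Acp5). Over all tested genes edgeR called 0.516% higher and 0.42% lower. It called 0 of the leukocyte (9), endothelial (9), erythroid (8) and odontoblast (5) genes. Of these, 3, 2, 5 and 2 were at an unadjusted p under 0.05 (14.5% of all tested genes). The DESeq2 Wald test (5.3% of all genes called) called 1, 2, 3 and 1 of these 4 lists, and voom (2.93%) 0, 1, 1 and 0. Erythroid genes summed to 2678 to 8863 CPM at P18 and 677 to 4528 CPM at P28, and P18 replicate 1, highest in enamel genes, was the lowest P18 library for them. The part of these cells in the enamel gene values was not tested.

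**Figure D4:**
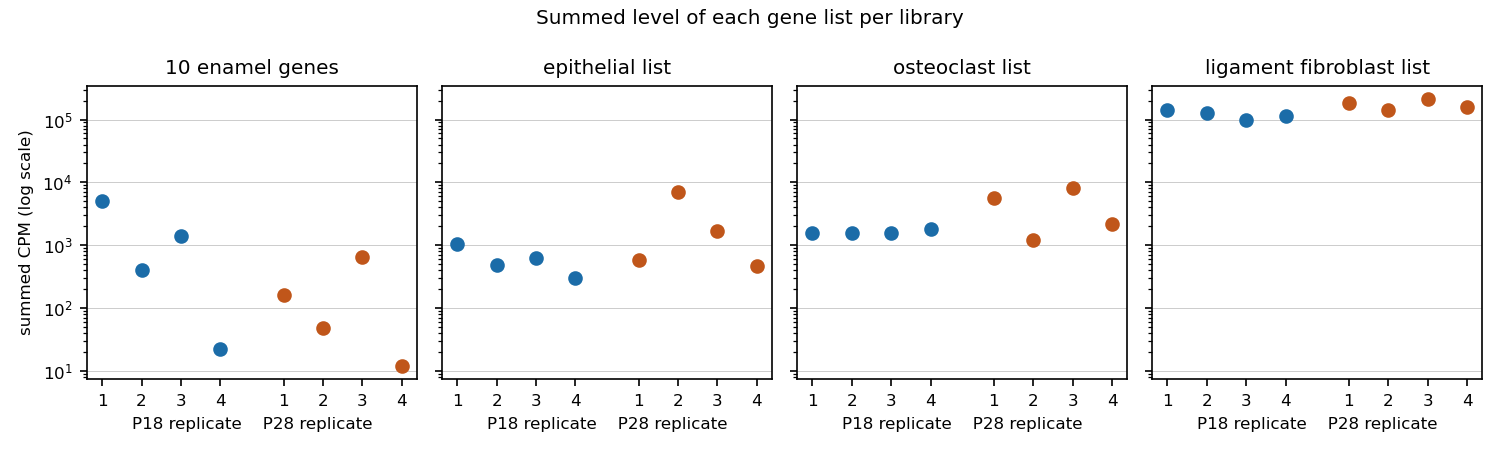
Summed CPM (log axis) of the 10 enamel genes and of the epithelial, osteoclast and ligament fibroblast lists in each library, P18 in blue and P28 in orange. The enamel sum spans 22.4 to 5007 CPM at P18, while the ligament fibroblast sum stays within 99332 and 209686 CPM in all 8 libraries.

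Further genes of enamel formation, most of them known from inherited enamel defects, did not follow Ambn as a group among those tested. Some of these, such as Alpl, are also genes of bone-forming cells. Below the filter, pooled counts at P18 and P28 were 343 and 25 for Wdr72 and 110 and 8 for Slc26a1. The other way went Itgb6 (0 and 43) and Sp6 (7 and 20). Of 29 listed, 28 were in the table and 20 were tested, of which 1 was called lower and 0 higher by edgeR (6 at an unadjusted p under 0.05, against 14.5% of all tested genes). With DESeq2's Wald test 2 were higher and 1 lower, and with voom 1 was lower. Over all tested genes edgeR called 0.42% lower and 0.516% higher, DESeq2's Wald test 5.3% and voom 2.93% in either direction. The median log2 fold change was 0.44, with 14 above 0 and 6 below. The called gene was Ctsc, the lysosomal protease cathepsin C, which is also abundant in immune cells, which averaged 213 ± 51.5 CPM (SD) before and 78.6 ± 28.6 CPM after contact (edgeR adjusted p = 0.0407; log2 fold change -1.44 ± 0.29). The call was lost when any P18 library or P28 replicate 1 or 3 was left out (adjusted p up to 0.127).

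Slc13a5, a citrate transporter, lay at 44.6, 58.1, 38.4 and 16.2 CPM in P18 replicates 1 to 4 and at 153, 111, 26.0 and 275 CPM in P28 replicates 1 to 4 (edgeR adjusted p = 0.149). Fam20c, the kinase of secreted phosphoproteins, averaged 17.1 ± 10.7 CPM before and 52.5 ± 34.4 CPM after contact, a difference that did not pass (0.187 by the same adjusted test). Among genes below the filter, named after their values were seen, Wdr72, a vesicle protein of maturation-stage ameloblasts, had 301 and 42 counts in P18 replicates 1 and 2, 25 in P28 replicate 3 and 0 elsewhere. The sulfate transporter gene Slc26a1 had 108 and 2 counts in P18 replicates 1 and 2, 8 in P28 replicate 3 and 0 elsewhere. For both, P18 replicate 1 held most of the signal, as it did for Klk4 and Slc24a4.

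Relatives of the enamel genes in and around the secretory calcium-binding phosphoprotein family showed no call in edgeR (0 of 7 tested). At an unadjusted edgeR p under 0.05 there were 3, where all tested genes had 14.5%. The 7 were the family members Dspp, Dmp1, Ibsp, Mepe and Spp1 and the related genes Sparc and Sparcl1. The DESeq2 Wald test and voom each called Ibsp and Spp1 higher, the genes of bone sialoprotein and osteopontin. Over all genes these tests called 5.3% and 2.93% in either direction. Mean levels of Ibsp were 1782 ± 642 CPM in the P18 libraries and 4507 ± 1414 CPM in the P28 libraries, and those of Spp1 were 44.6 ± 26.9 and 344 ± 270.1 CPM (edgeR adjusted p = 0.0523 and 0.0579). Dmp1 and Mepe, further bone and dentin proteins, had log2 fold changes of 1.38 ± 0.51 and 2.86 ± 1.58 (SE; edgeR adjusted p = 0.232 and 0.444). Of the 7, 6 lay above 0, with a median of 1.34. The milk genes Csn1s1, Csn2 and Csn3 were at 0 counts in all 8 libraries.

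Genes outside the 10 enamel genes were ranked by how like the matrix genes their pattern was. The measure was the root mean square difference from the mean centred log2 CPM of Ambn, Amelx, Amtn and Odam over the 8 libraries. The closest 6 were Mcm10, a DNA replication factor, Kcns1, a potassium channel subunit, Cyp1b1, a cytochrome P450, S100g, the calcium-binding calbindin-D9k, Tmem196 and Pknox2, a homeobox gene. Their differences were 1.74, 2.01, 2.08, 2.11, 2.12 and 2.19 on the log2 scale. Amelx, Amtn, Ambn and Odam, which define the pattern, lay at 0.86, 1.27, 1.53 and 2.23. The tested enamel genes that do not define it, Calb1, Slc24a4 and Fam83h, lay at 1.80, 2.81 and 5.06. Mcm10 lay at 19.3, 16.9, 23.9 and 2.13 CPM in P18 replicates 1 to 4 and at 0.208 to 0.488 CPM at P28. S100g was at 35.2, 5.61, 9.54 and 0 CPM in P18 replicates 1 to 4, and P28 replicates 1 to 4 held 1.52, 0, 30.8 and 0 CPM. As for Odam, S100g was high in P28 replicate 3 and at or near its lowest in P28 replicates 2 and 4.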

How the data were processed

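The deposited table of the authors holds raw read counts for 17337 gene symbols. Its 8 labelled cervical columns were used, and 40 columns of other samples were not. The genome build rn6 and the tools HTSeq 0.9.1, STAR 2.5.3a and edgeR 3.16.5 are named per the submitters' processing notes, which state neither their roles nor the strand setting. The authors' normalized table was not used.

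Counts were fitted in R 4.3.3 with edgeR 4.0.16 and its quasi-likelihood test (TMM, age as the only term, expression filter with a minimum count of 10, 10472 genes tested, 2-sided), and p-values were adjusted over all tested genes. Single values were compared by exact permutation of log2 CPM (prior count 2) or of log2 count ratios (0.5 added to each count). The SE of a log2 fold change was taken as its size over the square root of F. The median SE over tested genes was 0.49. Alternatives were DESeq2 1.42.0 (size factors, Wald test), upper-quartile scaling, limma 3.58.1 voom with quality weights, other filters, a replicate block and leaving out each library.

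The 10 genes and the lists were chosen with earlier results of these data known. Of 142 listed genes, 126 were found by symbol and 3 by a RefSeq synonym. The text names all 10 genes and the tissue-check genes. It also names the listed genes with the lowest p (up to 4 a list, where a result turns on them). Outside the 10, the 6 genes of most similar pattern are named, leaving out placeholder symbols. The values of 1 listed gene are not reported here. The labels name 4 animals per age, taken here as 1 library each. Fold changes refer to TMM scaling, under which the median of tested genes was 0.01. No coordinates of rn6 were used.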

Additional observations from a re-analysis of the deposited data

Results flagged for a closer look

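In 2 of 18 gene and age combinations with any spread, 1 library lay far from the other 3 on the log2 CPM scale, by a gap of 1 times the whole range. In both the other 3 libraries were tied at 0 counts, so the gap equals the range by construction, and the rate of about 1 in 20 at which chance gives such gaps does not apply. For Amtn at P28 it was replicate 3, with 2 counts (0.163 CPM) where the other 3 libraries had 0. For Mmp20 at P28 it was replicate 1, with 11 counts (0.645 CPM) where the other 3 had 0. The 2 counts of Amtn lie within the 3 counts that a count of 0 allows.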

How the results depend on the processing

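Of all genes, 98 were called, 552 with the DESeq2 Wald test, 307 with voom and quality weights, and 9 to 215 leaving out 1 library. Of the 10 enamel genes, 2 were called, 5 with DESeq2, 0 with voom, and 0 to 3 leaving out 1 library (0 without P28 replicate 1 or 3, 1 without P18 replicate 2, 3 without P18 replicate 4). Of the further enamel formation genes, 1 was called, 3 with DESeq2, and 0 to 1 leaving out 1 library. Of the phosphoprotein relatives, 0 were called, 2 each with DESeq2, voom or no filter, and 0 to 1 leaving out 1 library. Over the 8 cell type lists, 5 genes were called, 18 with DESeq2, 8 each with voom or no filter, and 1 to 7 leaving out 1 library. Odam changed sign without P18 replicate 1 (log2 fold change 0.19; -3.49 to 0.19 leaving out 1 library). Of 3 epithelial genes and their list, chosen after seeing the data, Krt17 changed sign without P28 replicate 2 (-1.11; -1.11 to 5.03 leaving out 1 library), while Krt5 (1.09 to 3.57), Perp (0.37 to 2.84) and the list's median (0.88 to 2.14) stayed above 0. The causes were not tested. The other 6 tested genes kept their sign in the fits with 1 library left out, with Ambn at -8.91 to -7.03 and Amtn at -12.8 to -8.95. The ratio of Ambn to Krt14 stayed lower at P28 in all 8 such fits, with a log2 difference of -9.94 to -6.94, though its exact p was 0.0571 without any 1 P18 library.

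Subject numbers are shared by the ages but name different animals, and same-numbered libraries did not deviate together (correlations across genes of -0.0196 to 0.00189; 0 of 4 were closest to their own number). With the replicate block, 26 genes were called, 0 of the further enamel formation genes, and 2 of the 10 enamel genes: Amelx (adjusted p = 0.00686) and Amtn, while Ambn was at 0.103.

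With 5252693 counts, a count of 0 in P28 replicate 4 allows up to 0.623 CPM, so the zeros of Amelx, Klk4 and Mmp20 there do not show absence.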
